A study of Homo sapiens with 4 samples.

Results

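The genes described here encode the enzymes that write, copy and remove methyl groups on DNA, and the core of Polycomb repressive complex 2 (PRC2). They were taken from a list of 10 genes chosen by function: the DNA methyltransferases DNMT1, DNMT3A and DNMT3B, the DNMT1 partner UHRF1, the oxidases TET1, TET2 and TET3, and the PRC2 subunits EZH2, SUZ12 and EED. Of these, 9 were matched among the 57905 gene identifiers counted. The identifier that the GRCh38 reference tables pair with UHRF1 was not among them. The reads were counted on GRCh37, where UHRF1 may stand under an older identifier that the tables do not pair with a symbol, so UHRF1 was not analysed here and every count below is out of 9 genes.

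The 4 RNA libraries were made from U87MG, an established cell line from a human glioblastoma. All 4 came from wild type cells at passages 8 to 10, grown in DMEM with 10% FBS. The 2 control libraries came from untreated cells, and the 2 chaetocin libraries from cells given 50 nM chaetocin for 24 h. Chaetocin is a fungal metabolite known as an unspecific inhibitor of histone methyltransferases, among them the histone H3 lysine 9 methyltransferase SUV39H1. The study also names thioredoxin reductase as a target, and reports unchanged trimethylation of histone H3 lysine 9 in treated cells. Chaetocin was added in DMSO, whereas no vehicle was given to the controls. The agent and its solvent therefore cannot be told apart, and a single cell line stands for the tumour. The comparison asked how the drug changed the transcripts of the cells, and nothing here measures protein, DNA methylation or histone marks.

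DNA methylation is set on unmethylated CpG sites by DNMT3A and DNMT3B, and copied to the new strand after replication by DNMT1, which UHRF1 brings to hemimethylated sites. The TET enzymes oxidise 5-methylcytosine, the first step of its removal. PRC2 methylates lysine 27 of histone H3 (H3K27) through EZH2, or through its paralog EZH1, and is active only with SUZ12 and EED. In gliomas, IDH mutations block the TET enzymes and H3K27M histone mutations block PRC2, and EZH2 is known as a gene that dividing cells express.

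Each library held between 21241984 and 32590479 counted reads. At these depths a count of 3 reads corresponded to between 0.0921 and 0.141 CPM (reads per 1000000 counted reads, unscaled for this limit), and such limits cover counting error only. All other CPM values below were scaled between libraries by the TMM method. The biological coefficient of variation was 16.8%. Of the 16416 genes tested, 182 were higher and 122 lower with chaetocin at an adjusted p under 0.05, and another scaling (upper quartile) gave 246 higher and 88 lower. The glioma markers VIM, CD44 and NES were each at 25.1 CPM or more in every library, while AQP4 had no read, GFAP stayed at or below 1.02 CPM, and SOX2 and S100B had no read in the controls. The summed level of 8 astroglial or glioma markers was 5498 and 4793 CPM in control and 3223 and 1972 CPM in chaetocin cells, with none of them called. VIM and CD44 made up nearly all of this sum, with 2797 and 2653 CPM in control 1 and 1148 and 797 CPM in chaetocin 2. The summed level of 8 leukocyte markers was 1.11 and 1.50 CPM in control and 5.70 and 5.77 CPM in chaetocin cells, with PTPRC, ITGAM and FCER1G called higher and CD3E and TYROBP without a read. PTPRC and ITGAM, with at most 1 read in either control, passed the filter on low counts through the chaetocin libraries alone. The part of these markers in the results below was not tested. Fewer cells of a kind and less RNA per cell cannot be told apart in such samples. The methods of the study describe duplicates of cells in wells and do not say whether these were separate experiments, so the p-values measure only the spread between these libraries.

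EZH2 was the only one of the 9 genes called, and it was higher with chaetocin. Its RefSeq promoter is shown here beside those of E2F1, the cell cycle transcription factor that also rose, and of SUZ12 and DNMT1, which were not called. The capitals mark 8-letter E2F sites, searched as TTTCCCGC, TTTGGCGC, TTTCGCGC or TTTGCCGC on both strands. Each stretch holds 220 bases before the transcription start and 30 after it, 5′ to 3′ on the strand of the gene, from build GRCh38.p14. They lie at chr7:148884262-148884511 (minus strand) for EZH2, chr20:33686356-33686605 (minus strand) for E2F1, chr17:31936787-31937036 (plus strand) for SUZ12 and chr19:10194924-10195173 (minus strand) for DNMT1.
EZH2: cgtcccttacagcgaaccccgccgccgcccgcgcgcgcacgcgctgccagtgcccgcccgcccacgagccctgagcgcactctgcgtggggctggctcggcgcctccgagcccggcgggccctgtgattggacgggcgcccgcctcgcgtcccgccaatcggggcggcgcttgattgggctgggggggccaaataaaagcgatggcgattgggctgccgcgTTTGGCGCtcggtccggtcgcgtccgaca
E2F1: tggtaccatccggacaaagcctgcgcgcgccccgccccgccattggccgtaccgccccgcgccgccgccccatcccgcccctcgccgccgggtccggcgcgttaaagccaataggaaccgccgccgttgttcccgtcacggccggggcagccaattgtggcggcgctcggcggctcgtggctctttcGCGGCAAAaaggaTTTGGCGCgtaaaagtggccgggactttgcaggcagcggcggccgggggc
SUZ12: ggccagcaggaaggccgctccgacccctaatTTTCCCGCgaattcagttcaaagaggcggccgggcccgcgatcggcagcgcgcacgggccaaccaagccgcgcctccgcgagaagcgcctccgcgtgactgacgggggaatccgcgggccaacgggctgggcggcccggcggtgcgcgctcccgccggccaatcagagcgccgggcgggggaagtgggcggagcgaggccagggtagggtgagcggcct
DNMT1: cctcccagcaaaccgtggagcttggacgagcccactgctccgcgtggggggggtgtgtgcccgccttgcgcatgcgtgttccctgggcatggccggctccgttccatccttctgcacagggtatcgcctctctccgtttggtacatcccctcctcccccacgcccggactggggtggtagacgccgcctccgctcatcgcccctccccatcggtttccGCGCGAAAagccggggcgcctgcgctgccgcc
Across the 300-base windows of 35116 RefSeq promoters, 3.31% held such a site, and 3.99% of 27305 genes had it in at least 1 promoter. All 10 listed genes were matched by symbol, UHRF1 included, and 4 of them had a site in at least 1 promoter: DNMT1, UHRF1, EZH2 and SUZ12. Their windows with a site were rich in CpG, at percentiles 77.6 to 97.1 of all promoters, and the background share was not matched for this. The only window of DNMT3B, from 32779602 to 32779901, lay inside the gene, so the start of the gene at 32762385 was not searched. In EZH2 the site began at base 2 of 1 of its 2 promoters, counting the transcription start as base 1. That window held 46 CpG pairs, against a median of 14 over all promoters. The letters stood in genes that were called (EZH2, E2F1) and in genes that were not (SUZ12, DNMT1, and EZH1 at 115 bases before the start), and they were not in the windows of RRM2, NEIL3 and ZBTB38, the other called genes of the lists described below. A match of letters is a description and not a measured binding site.

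Transcripts of the PRC2 methyltransferase EZH2 (ENSG00000106462, chromosome 7 of GRCh38, 148807383 to 148884321) were more abundant in chaetocin-treated cells. EZH2 had 1537 and 1996 reads in the control libraries and 2573 and 3763 in the chaetocin libraries. Its levels were 63.0 and 69.5 CPM in control and 118 and 106 CPM in chaetocin cells. Both chaetocin libraries lay well above both controls, and the replicates within each group were close. The mean was 66.2 ± 4.58 CPM (SD, n = 2) in control and 112 ± 8.71 CPM (SD, n = 2) in chaetocin cells, a 1.69-fold difference. The log2 fold change was 0.76 with a standard error of 0.15 and a 95% interval of 0.42 to 1.10 (edgeR's quasi-likelihood test, adjusted p = 0.0466). EZH2 thus stood just inside the threshold: a log2 fold change of 0.74 at its standard error would have been the smallest to pass. Among all tested genes 1.11% were called higher, and EZH2 ranked 268 by p-value. DESeq2's Wald test also called it (log2 fold change 0.74, adjusted p = 0.00438), where it called 2.35% of all genes higher. The edgeR call was lost when all libraries were thinned to the smallest total (0.79, adjusted p = 0.0510), without control 1 (0.68, adjusted p = 0.346) and without control 2 (0.82, adjusted p = 0.134). The fold change stayed between 0.68 and 0.84 over all 12 alternative settings.

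**Figure D1:**
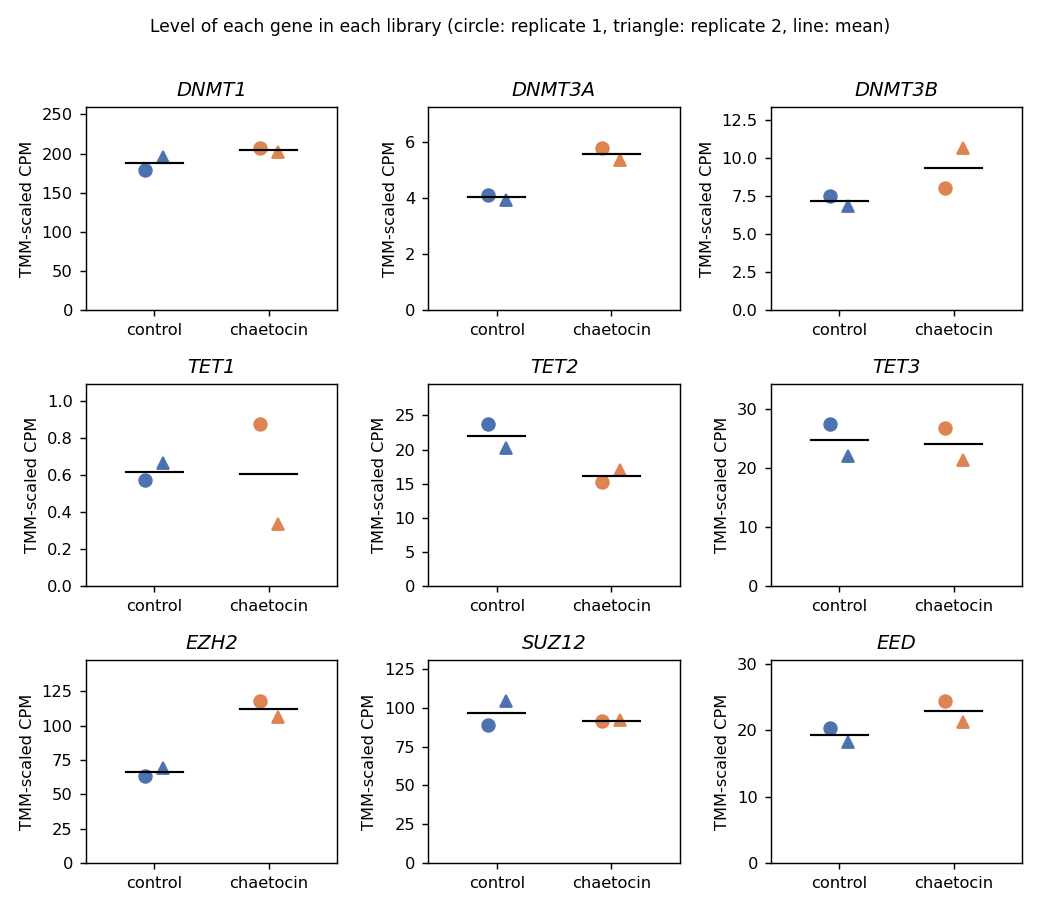
TMM-scaled CPM (vertical axis, from 0) of each of the 9 measured genes in each library, with control on the left and chaetocin on the right of each panel. Circles are replicate 1, triangles replicate 2 and black lines the mean of 2 libraries. EZH2 is the gene with the widest gap between groups, from 69.5 CPM in the higher control to 106 CPM in the lower chaetocin library.

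The other core subunits of PRC2 were not called. SUZ12 (ENSG00000178691, chromosome 17, 31937018 to 32001045), the scaffold on which the complex assembles, had 89.2 and 105 CPM in control and 91.6 and 92.0 CPM in chaetocin cells. Its groups overlapped, and its log2 fold change was -0.08 ± 0.15 (SE, adjusted p = 0.811 by edgeR), with a 95% interval of -0.42 to 0.26 and a sign that turned without control 2 (0.03). The near-identical copy SUZ12P1 held 172 and 204 reads in control and 223 and 285 in chaetocin libraries, so reads may be split between these loci and the SUZ12 level is uncertain to that extent. EED (ENSG00000074266, chromosome 11, 86244544 to 86278813), the subunit that binds trimethylated H3K27, had 20.2 and 18.2 CPM in control and 24.4 and 21.3 CPM in chaetocin cells. Both chaetocin libraries were above both controls for EED, but the log2 fold change of 0.25 ± 0.17 (SE) had an interval of -0.15 to 0.64 and an adjusted p of 0.459 by edgeR. A log2 fold change of 0.74 for SUZ12 or 0.86 for EED would have been needed to pass.

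Relative to its PRC2 partners, EZH2 had higher values in both chaetocin libraries. Levels were put on a per-length scale for this, as CPM per kilobase of exon (RPKM). EZH2 and SUZ12 stood at nearly equal RPKM in control cells, with ratios of 1.02 and 0.96, and EZH2 was 1.87 and 1.67 times SUZ12 in the chaetocin libraries. The ratio of EZH2 to EED was 4.83 and 5.91 in control and 7.50 and 7.72 in chaetocin cells. EZH1, the paralog that gives PRC2 a weaker methyltransferase, had 15.7 and 18.4 CPM in control and 19.9 and 21.7 CPM in chaetocin cells, a log2 fold change of 0.29 (adjusted p = 0.398 by edgeR). The ratio of EZH2 to EZH1 in RPKM was 6.20 and 5.84 in control and 9.16 and 7.55 in chaetocin cells, a mean log2 difference of 0.47. In all 3 ratios both chaetocin libraries exceeded both controls. With the longest transcript as the length, the ratio to SUZ12 was 0.87 and 0.82 in control and 1.59 and 1.42 in chaetocin cells, that to EED 2.36 and 2.89 against 3.68 and 3.78, and that to EZH1 5.10 and 4.80 against 7.53 and 6.21. The size of each ratio therefore depended on the length used. The change between groups could not depend on it, since the same lengths enter both groups and cancel. The ratios are given as a description, since the exact permutation test of 2 against 2 libraries cannot give a two-sided p below 0.333, and those to SUZ12 and EED were added after the data were seen.

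**Figure D2:**
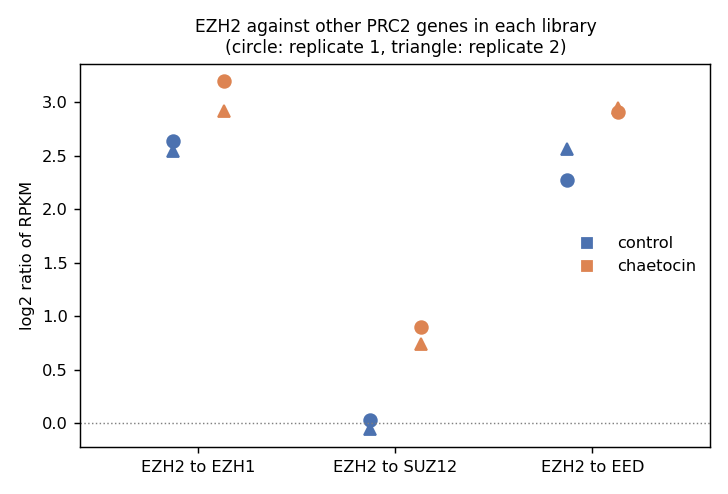
Log2 ratio of the RPKM of EZH2 to that of EZH1, SUZ12 and EED (vertical axis) in each library, with control in blue, chaetocin in orange, circles for replicate 1 and triangles for replicate 2. All 3 ratios are higher in both chaetocin libraries, and EZH2 to SUZ12 lies near 0 in both controls, that is, at equal levels by the length of all exons.

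The DNA methyltransferases had higher values in both chaetocin libraries, and none of the 3 passed the test. DNMT1 (ENSG00000130816, chromosome 19, 10133345 to 10231286), the maintenance enzyme, had 179 and 196 CPM in control and 208 and 202 CPM in chaetocin cells. The gap between the groups was smaller than the spread between the controls, and the log2 fold change was 0.13 ± 0.15 (SE, interval -0.21 to 0.46, adjusted p = 0.675 by edgeR). With between 4379 and 7191 reads in each library, DNMT1 was the deepest of the 9 genes, and a log2 fold change of 0.73 would have passed. S1PR2, which overlaps DNMT1 on the same strand, had at most 58 reads in any library.

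DNMT3A (ENSG00000119772, chromosome 2, 25227855 to 25342590), a de novo enzyme, was counted with 100 and 113 reads in control and 126 and 190 reads in chaetocin libraries. That is 4.10 and 3.93 CPM against 5.79 and 5.35 CPM, a separation wider than the spread within either group. The log2 fold change of 0.47 ± 0.24 (SE) had an interval of -0.08 to 1.02 and an adjusted p of 0.318 by edgeR. DNMT3B (ENSG00000088305, chromosome 20, 32762385 to 32809356), the other de novo enzyme, had 7.50 and 6.86 CPM in control and 8.00 and 10.7 CPM in chaetocin cells. Most of its difference lay in chaetocin 2: the log2 fold change was 0.38 ± 0.23 (SE, adjusted p = 0.391 by edgeR) and 0.15 without that library. At their standard errors DNMT3A needed a log2 fold change of 1.21 and DNMT3B of 1.16 to pass, so a smaller observed change could not be called. Those standard errors rest on the number of reads and on the spread and number of libraries, which were not separated. DNMT3B stood above DNMT3A in every library, at between 3.59 and 5.18 times its RPKM, and this ratio overlapped between groups.

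Among the TET oxidases, TET2 had lower values with chaetocin, TET3 had similar ones, and TET1 was barely transcribed. TET2 (ENSG00000168769, chromosome 4, 105145875 to 105279816) had 23.7 and 20.3 CPM in control and 15.2 and 16.9 CPM in chaetocin cells. It was the 1 gene of the 9 with both chaetocin libraries below both controls. The log2 fold change was -0.45 ± 0.18 (SE), with an interval of -0.86 to -0.04 that lay below 0. Its unadjusted p was 0.0347, but over all genes tested the adjusted p was 0.208 by edgeR and 0.311 by DESeq2. At unadjusted p under 0.05, 9.43% of all genes were lower and 10.9% higher, so 1 gene lower among 9 was near the background.

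TET3 (ENSG00000187605, chromosome 2, 73986404 to 74108176) had 27.4 and 22.0 CPM in control and 26.7 and 21.4 CPM in chaetocin cells. Replicate 1 was above replicate 2 in both groups by more than the groups differed, and the log2 fold change of -0.04 ± 0.19 (SE, adjusted p = 0.931 by edgeR) turned to 0.03 under upper-quartile scaling. TET1 (ENSG00000138336, chromosome 10, 68560656 to 68694482) had 14 and 19 reads in control and 19 and 12 reads in chaetocin libraries, between 0.338 and 0.873 CPM. Its interval, -1.45 to 1.26, spanned both directions, and only a log2 fold change of 2.96 or more would have passed.

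TET3 and TET2 together made up nearly all of the TET transcripts per length. By the length of all exons, TET3 held 59.8% and 58.0% of the summed TET RPKM in the control libraries, TET2 38.6% and 39.7%, and TET1 1.65% and 2.30%. In the chaetocin libraries TET3 held 68.1% and 62.1%, TET2 28.9% and 36.7%, and TET1 2.94% and 1.30%. The TET2 share was below both controls in both chaetocin libraries, with chaetocin 1 much lower than chaetocin 2, while the TET1 shares overlapped. By the longest transcript, TET3 and TET2 were level in control cells (50.1% and 48.4% against 48.6% and 49.8%), and TET2 held 38.0% and 46.6% in the chaetocin libraries. The shares are given as a description, since the permutation test is bounded as above.

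**Figure D3:**
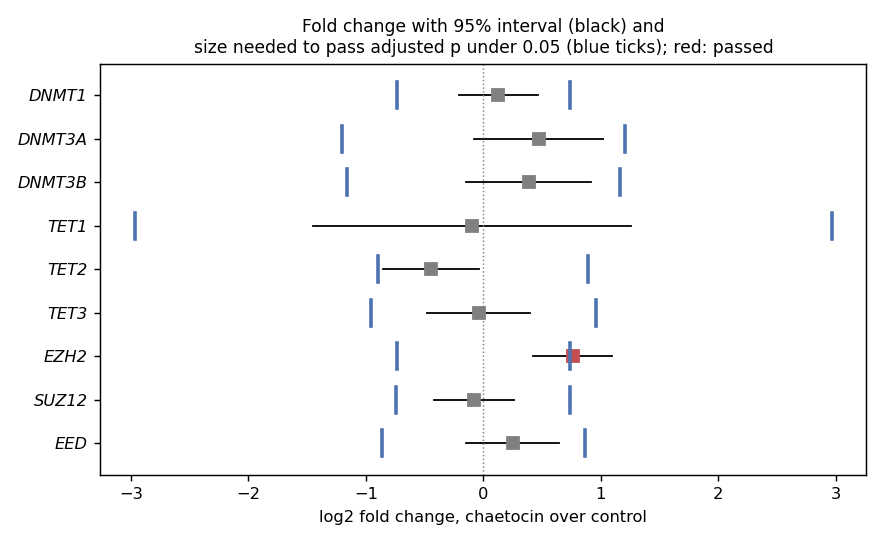
Log2 fold change of chaetocin over control (horizontal axis) for each gene, as a square with its 95% interval in black, and the size that would have passed an adjusted p of 0.05 as blue ticks on either side of 0. The EZH2 square, in red, lies just past its tick at 0.74, and the other 8 squares, in grey, lie inside theirs.

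Read together, 1 of the 9 genes was called higher and none lower by edgeR, where 1.11% and 0.743% of all genes tested were. At an unadjusted p under 0.05 the counts were 1 higher (EZH2) and 1 lower (TET2), and DESeq2 called 1 higher and none lower, where it called 2.35% and 2.93% of all genes. DNMT1, DNMT3A, DNMT3B, EZH2 and EED had both chaetocin libraries above both controls, 5 of 9 genes, where 26.8% of all genes did. TET2 alone had both below, where 26.0% of all genes did, and TET1, TET3 and SUZ12 overlapped. The median log2 fold change of the 9 genes was 0.13, and that of all genes tested was 0.01.

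The order of the levels per length was set by DNMT1, SUZ12 and EZH2 at the top. In control cells DNMT1 stood at 19.2 ± 1.19 RPKM, SUZ12 at 14.8 ± 1.68, EZH2 at 14.6 ± 1.01, EED at 2.74 ± 0.202 and TET3 at 2.01 ± 0.308 (SD, n = 2). DNMT3B followed at 1.55 ± 0.0982 RPKM, TET2 at 1.33 ± 0.149, DNMT3A at 0.334 ± 0.00971 and TET1 at 0.0665 ± 0.00667 (SD, n = 2). Of these neighbours in the order, SUZ12 and EZH2 overlapped between libraries, and the others did not. With chaetocin EZH2 came first at 24.8 ± 1.93 RPKM, before DNMT1 at 20.9 ± 0.377 and SUZ12 at 14.0 ± 0.0380 (SD, n = 2), and the libraries of these 3 genes did not overlap. DNMT3B, at 2.02 ± 0.408 RPKM, and TET3, at 1.96 ± 0.307 RPKM (SD, n = 2), could not be told apart in the chaetocin libraries. The place of EZH2 above DNMT1 depended on the gene length used: by the longest transcript in place of all exons, DNMT1 had 37.9 and EZH2 30.8 RPKM with chaetocin, and TET2 moved above DNMT3B in control cells, at 2.16 against 1.66 RPKM.

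**Figure D4:**
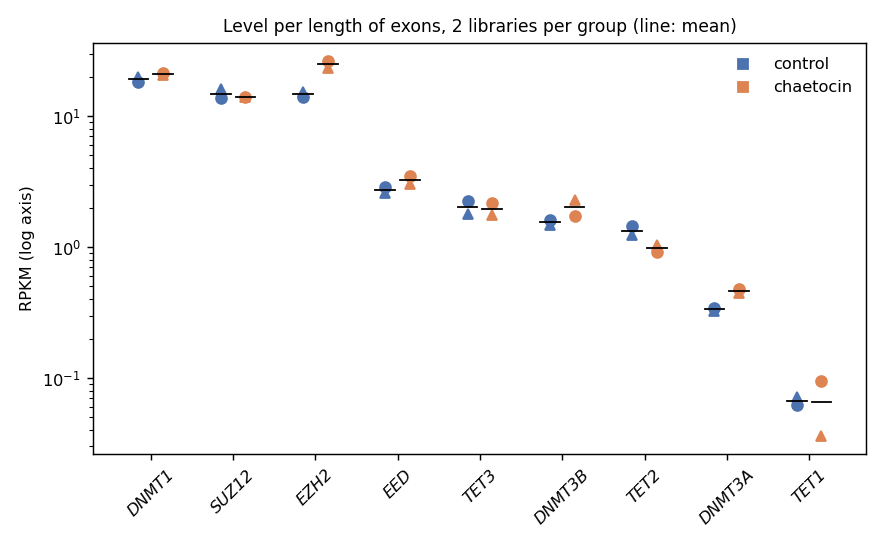
RPKM of each gene in each library on a log axis, ordered by the control mean, with control in blue, chaetocin in orange and black lines for the mean of 2 libraries. DNMT1, SUZ12 and EZH2 lie above 13 RPKM in every library and TET1 below 0.1 RPKM, and EZH2 passes DNMT1 in the chaetocin libraries.

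The remaining subunits of both Polycomb complexes had no call by edgeR. None of the 9 tested PRC2 partners was called by edgeR or DESeq2, and none had an unadjusted p under 0.05. Their median log2 fold change was 0.02, with 5 above 0 and 4 below, and EZHIP, an inhibitor of PRC2, had no read in any library. The histone-binding subunits RBBP4 (-0.11, adjusted p = 0.709) and RBBP7 (0.02, adjusted p = 0.964) were near 0 on the log2 scale. The values of this list ran from -0.18 for AEBP2, a subunit of 1 PRC2 variant, to 0.34 for LCOR, whose locus also encodes a PRC2 accessory protein. In PRC1, the complex that ubiquitinates histone H2A, 20 of 21 listed genes were tested, with a median of -0.01 and 9 above 0. PRC1 had no gene called by edgeR, 3 higher and 1 lower at an unadjusted p under 0.05 (10.9% and 9.43% of all genes), and 2 higher by DESeq2 (2.35% of all genes). CBX2, which binds trimethylated H3K27, had the highest value of PRC1, with 28 and 55 reads in control and 87 and 155 reads in chaetocin libraries. Its log2 fold change of 1.44 ± 0.34 (SE) had an adjusted p of 0.0679 by edgeR and 0.0386 by DESeq2. PHC1 had the lowest, -0.56, with an adjusted p of 0.241.

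Enzymes that remove Polycomb marks did not pass edgeR's test either. Of 7 genes tested none was called by edgeR, 1 was higher at an unadjusted p under 0.05 (10.9% of all genes) and 1 was higher by DESeq2 (2.35% of all genes), in each case KDM6B, a demethylase of trimethylated H3K27. KDM6B had 19.6 and 14.9 CPM in control and 28.1 and 40.7 CPM in chaetocin cells. Both chaetocin libraries exceeded the controls, with chaetocin 2 the higher, and the log2 fold change of 1.00 ± 0.23 (SE) had an adjusted p of 0.0653 by edgeR and 0.00655 by DESeq2. Its paralog KDM6A stood at -0.16 on the log2 scale (adjusted p = 0.654). The extremes of the list were ASXL3, at 1.22 with at most 38 reads in any library (adjusted p = 0.287), and ASXL2, at -0.28 (adjusted p = 0.445), both partners of the deubiquitinase BAP1. The median of the list was 0.22, with 4 genes above 0 and 3 below.

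Partners of maintenance methylation had no call by edgeR or DESeq2 among 6 tested genes of 8, and 1 was higher at an unadjusted p under 0.05, where 10.9% of all genes were. That gene was PCNA, the sliding clamp that ties DNMT1 to replication forks, with 165 and 189 CPM in control and 263 and 231 CPM in chaetocin cells. Its log2 fold change was 0.48 ± 0.16 (SE, adjusted p = 0.146 by edgeR). HELLS, a remodeller needed for DNA methylation, had 0.22 (adjusted p = 0.463), and UHRF2, the paralog of UHRF1, had the lowest value, -0.30 (adjusted p = 0.305). The median of the list was 0.07.

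One reader of methylated DNA fell. ZBTB38, a zinc finger protein that binds methylated CpG, had 453 and 433 CPM in control and 262 and 234 CPM in chaetocin cells, a log2 fold change of -0.83 ± 0.16 (SE, adjusted p = 0.0460 by edgeR). The groups were far apart, but the call stood close to the threshold. The call was lost without control 1 (log2 fold change -0.82) and without control 2 (-0.88). It was also lost in 4 other settings, with log2 fold changes of -0.82 to -0.76 and adjusted p up to 0.0561 by edgeR. Of 8 readers, ZBTB38 was the 1 called, where 0.743% of all genes were called lower, 3 had values above 0, where 50.9% of all genes did, and the median was -0.06. MBD3, a subunit of the NuRD complex, had the highest value, 0.34 (adjusted p = 0.261).

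A glycosylase rose among the genes that finish the removal of oxidised methylcytosine. NEIL3, a DNA glycosylase for oxidised bases, had 1141 and 1499 reads in control and 1999 and 5371 reads in chaetocin libraries. The level was 46.8 and 52.2 CPM in control against 91.9 and 151 CPM with chaetocin, so both chaetocin libraries were above the controls and chaetocin 2 far above chaetocin 1. The log2 fold change was 1.30 ± 0.23 (SE, adjusted p = 0.0382 by edgeR), 0.89 without chaetocin 2 and 1.61 without chaetocin 1. NEIL3 was the 1 gene called of 11, where 1.11% of all genes were called higher, with a list median of -0.0028, and APEX1, the endonuclease that acts after the glycosylases, had the lowest value, -0.30 (adjusted p = 0.328). NEIL3 is known for repair of oxidative damage and crosslinks, and its count says nothing by itself about methylcytosine.

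Genes that supply the methyl donor and 2-oxoglutarate, the cofactor of the TET enzymes, had no call by edgeR or DESeq2 among 12. At an unadjusted p under 0.05, 1 was higher and 2 were lower, near the 10.9% and 9.43% of all genes, and the median was -0.03. IDH1, whose mutant form makes an inhibitor of the TET enzymes, stood at -0.01 (adjusted p = 0.981). The extremes were 2 enzymes of one-carbon metabolism, SHMT1 at 0.51 (adjusted p = 0.102) and MTHFD1 at -0.39 (adjusted p = 0.206).

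Most of the genes that DNA methylation or Polycomb usually keep silent had few reads or none in either group. Of 18 germline genes known to be silenced by promoter methylation, 4 had enough reads to be tested. None was called by edgeR, and DESeq2 gave an adjusted p for PIWIL2 alone, which it did not call. At an unadjusted p under 0.05, 2 were higher (DDX4 and PIWIL2). These and STK31 passed the filter on low counts through the chaetocin libraries alone, so that their direction was favoured by the filter. DDX4, a germ cell RNA helicase, had 1 and 0 reads in control and 8 and 12 reads in chaetocin libraries. SYCP3, a protein of the meiotic chromosome axis, had 5 and 11 against 3 and 13 reads. Of 22 developmental and cell cycle genes known as Polycomb targets 6 were tested, and none was called by edgeR or DESeq2, with 2 higher at an unadjusted p under 0.05, where 10.9% of all genes were. These 6 had a median log2 fold change of -0.32, from 1.35 for the homeobox gene LHX2 (21 and 17 against 52 and 48 reads, adjusted p = 0.154) to -0.64 for the glial factor OLIG2 (adjusted p = 0.398). CDKN2A and CDKN2B had no read in any library, and whether these 2 genes are present in the cells was not tested.

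**Figure D5:**
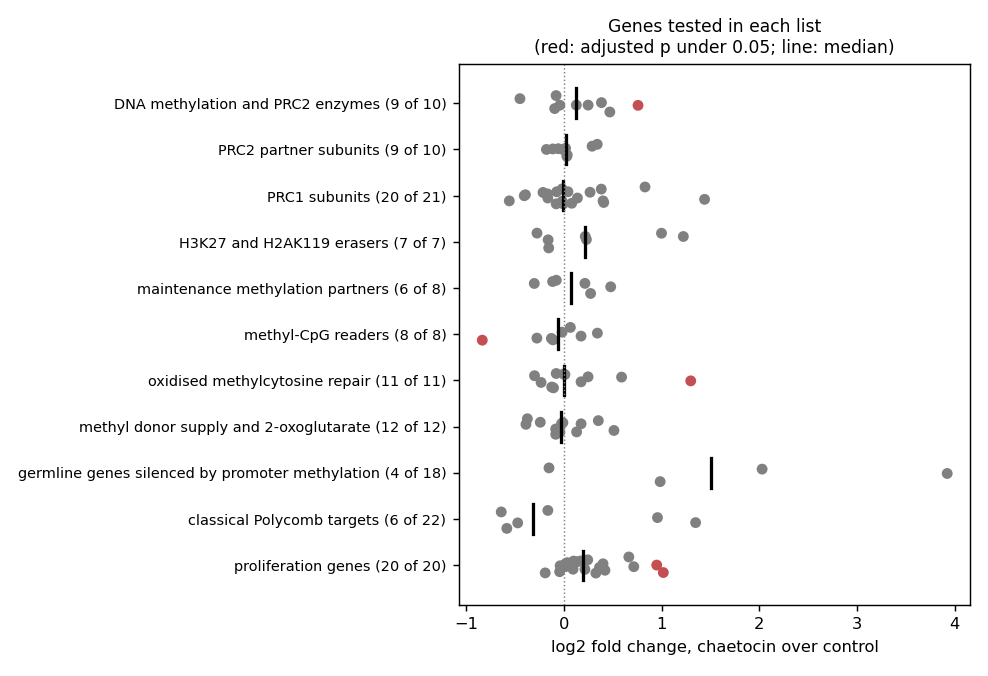
Log2 fold change of chaetocin over control (horizontal axis) for each tested gene of each list, with the number tested of the number listed in brackets, called genes in red, others in grey and the list median as a black line. The called genes are EZH2, ZBTB38, NEIL3, RRM2 and E2F1. The germline list rests on 4 genes of few reads, 3 of which passed the filter through the chaetocin libraries alone.

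Beside EZH2, 2 of the proliferation genes rose. Of 20 such genes, 17 had a log2 fold change above 0, where 50.9% of all genes did, and the median was 0.19 against 0.01 over all genes. EdgeR called 2 higher (1.11% of all genes) and none lower (0.743%), and DESeq2 called 3 higher (2.35%) and none lower (2.93%). At an unadjusted p under 0.05, 6 were higher (10.9% of all genes) and none lower (9.43%). RRM2, the regulated subunit of ribonucleotide reductase, had 322 and 323 CPM in control and 678 and 628 CPM in chaetocin cells, a log2 fold change of 1.02 ± 0.16 (SE, adjusted p = 0.0311 by edgeR). E2F1 had 166 and 175 CPM in control and 345 and 315 CPM in chaetocin cells, a log2 fold change of 0.95 ± 0.15 (SE, adjusted p = 0.0311 by edgeR). In both genes, as in EZH2, the groups were far apart and chaetocin 1 was the higher of its pair. MCM4, a subunit of the replicative helicase, had the lowest value of the list, -0.19 (adjusted p = 0.532), and MKI67 stood at 0.33 (adjusted p = 0.399). The calls of RRM2 and E2F1 were lost when either control was left out. Without control 1 and without control 2, the log2 fold change was 1.00 and 1.01 for RRM2 and 0.90 and 0.98 for E2F1. The part of proliferation in the EZH2 level was not tested.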

How the data were processed

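RNA of 4 samples was sequenced after polyA selection as 50 bp single-end reads on an Illumina HiSeq4000. The authors deposited raw counts, whole numbers of reads per Ensembl gene with no normalization. The submitters' processing notes name cutadapt, TopHat2, TopHat, SAMtools and build GRCh37. The counting tool and its strand setting are not given in the sources used here, so overlapping genes may share reads. The methods of the study name DESeq2.

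Groups and replicate numbers were read from the sample labels. Symbols for 52338 of 57905 identifiers, gene positions and exon lengths came from GENCODE v29 on GRCh38, which is not the annotation used for counting. Promoters came from RefSeq. From the counts, edgeR 4.0.16 in R 4.3.3 was run with filterByExpr (minimum count 10), TMM scaling (factors 0.942 to 1.09), a robust quasi-likelihood fit without a block, and Benjamini-Hochberg adjustment over 16416 genes at a threshold of 0.05. In a test of the script on simulated data, 13 of 160 calls were false and 66.0% of 2-fold changes were called. Totals were 21241984 to 32590479 counts per sample, and replicates differed beyond sampling noise. Alternatives were other scalings and filters, DESeq2 1.42.0, a replicate block, thinning, protein-coding genes only and leaving out each library. The genes and lists were chosen with earlier results of these data known. The genes named from each list are the called ones, the highest and lowest tested log2 fold change, and EZH1, RBBP4, RBBP7, PCNA, HELLS, IDH1, KDM6A and KDM6B. EZHIP, CDKN2A, CDKN2B, MKI67, PIWIL2, STK31 and any gene of the last section were named after their values were seen. UHRF1, PCGF2 and the marker PECAM1 were not matched to an identifier by the tables used. Some genes of the lists are not reported here by name.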

Additional observations from a re-analysis of the deposited data

How the results depend on the processing

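Of 108 values of the 9 genes under 12 alternatives, 97 kept their direction and side of the threshold, 3 lost the call and 8 changed sign. The 3 lost calls were those of EZH2 given above, which left 0 of the 9 genes called after thinning and 0 to 1 with a library left out. The sign changed in genes that were never called: TET1 (0.041 after thinning, -0.86 to 0.49 with a library left out), TET3 (0.033 with upper-quartile scaling, 0.0064 after thinning, -0.21 to 0.11 with a library left out) and SUZ12 (-0.20 to 0.030 with a library left out). No alternative called one of the 9 genes lower.

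Over all genes, the counts of 182 higher and 122 lower became 787 and 759 with no filter, 114 and 80 when every library had to hold 10 counts, 385 and 481 with DESeq2, 113 and 67 after thinning, and 215 to 1332 and 97 to 1673 with a library left out. Among the genes of the other lists, 3 were called higher and 1 lower. The number higher became 5 with upper-quartile scaling, 9 with no filter, 7 with DESeq2 and 2 to 17 with a library left out. The number lower became 0 with upper-quartile scaling, with the 10-count minimum in each library, after thinning and with protein-coding genes only, and 0 to 7 with a library left out. The lone library of a group was then assumed to vary like the other group. The causes were not tested, beyond the fewer reads that thinning leaves.

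The replicate numbers mark no shared animal, day or batch in the labels, and across genes the difference between replicates 1 and 2 correlated between the groups with r = 0.123. With the replicate block, 1036 genes were called higher and 1053 lower. Of the 9 genes it called EZH2 higher (log2 fold change 0.76, adjusted p = 0.000449) and none lower, and of the other lists 15 higher and 2 lower. The ratio of DNMT1 to UHRF1 was not run, since UHRF1 could not be matched to an identifier.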

Other observations

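Beyond the genes named by rule, 3 genes of the lists stood close to the threshold of edgeR's quasi-likelihood test, and they were chosen after their values were seen. CBX7, a PRC1 subunit that reads trimethylated H3K27, had 20.8 and 17.9 CPM in control and 32.1 and 36.5 CPM in chaetocin cells (log2 fold change 0.83, adjusted p = 0.0513 by edgeR and 0.00976 by DESeq2). TDG, the glycosylase that excises the oxidised bases made by the TET enzymes, had 32.2 and 32.6 CPM in control and 50.1 and 47.5 CPM in chaetocin cells (log2 fold change 0.59, adjusted p = 0.0781 by edgeR and 0.0674 by DESeq2). CDK1, a mitotic kinase that also phosphorylates EZH2, had 146 and 162 CPM in control and 250 and 238 CPM in chaetocin cells (log2 fold change 0.66, adjusted p = 0.0634 by edgeR and 0.0105 by DESeq2). In each gene both chaetocin libraries lay above both controls.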
